A study of Mus musculus with 10 samples.

Results

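Dual-specificity phosphatases (DUSPs) switch off mitogen-activated protein kinases (MAPKs) by removing the phosphates from the threonine and the tyrosine of the kinase activation loop. The 10 genes described here, *Dusp1*, *Dusp2*, *Dusp4*, *Dusp5*, *Dusp6*, *Dusp7*, *Dusp8*, *Dusp10*, *Dusp16* and *Dusp3*, encode enzymes directed at ERK, p38 or JNK. They were taken by gene name from a table of 54532 genes, and all 10 were found. The table holds RNA-seq of 10 mouse hearts in FPKM (fragments per kilobase of gene, scaled for library size), a level corrected for gene length, so that levels can be set side by side between genes. All mice carried 1 germline copy of the Noonan syndrome allele (Rit1 M90I/+), made by crossing a conditional *Rit1* M90I line to a deleter line whose Cre is driven by the cytomegalovirus promoter. The vehicle control group had 5 hearts, numbered 1 to 5, and the other 5 came from mice dosed with the MEK1/MEK2 inhibitor trametinib (MEKi). They were dosed daily at 1 mg/kg from the age of 4 weeks until 24 weeks, that is for 20 weeks. The study's methods name littermates of both sexes. Hearts were collected 2 hours after the last dose. Every comparison therefore lies within the mutant genotype, and no wild-type heart is among the 10. The part of the heart that gave the RNA is not given in the sources used here.

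MEK phosphorylates ERK, and ERK signaling induces several of its own phosphatases, which makes a negative feedback loop. *Dusp6* is widely read as a transcript of ERK output for this reason, and *Dusp5* responds to ERK through serum response factor. *Dusp1* is an immediate early gene that responds to growth factors, stress, cAMP and glucocorticoids. In heart muscle, DUSPs are known as brakes on MAPK signaling during growth of the myocyte. The comparison asks whether 20 weeks of MEK inhibition changed the transcripts of these phosphatases in mutant hearts.

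The feature that defines these enzymes is a short catalytic signature with a cysteine that takes the phosphate and an arginine that holds it. The coding bases of this signature are shown for *Dusp1*, *Dusp5*, *Dusp6*, *Dusp10* and *Dusp3*, with the cysteine and arginine codons in capitals. They are read 5′ to 3′ on the coding strand from the longest coding transcript with the signature in GENCODE M21 (GRCm38).
Dusp1 (exon 4, chr17:26506592-26506615, minus strand): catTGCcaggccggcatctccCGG
Dusp5 (exon 4, chr19:53540951-53540974, plus strand): cacTGCgaagctggggtttccCGG
Dusp6 (exon 3, chr10:99266027-99266050, plus strand): catTGCttggcaggtatcagcCGC
Dusp10 (exon 4, chr1:184074293-184074316, plus strand): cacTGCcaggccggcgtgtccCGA
Dusp3 (exon 4, chr11:101974902-101974925, minus strand): catTGCcgcgagggctacagcCGC
The signature was searched for as histidine and cysteine, a gap of fixed length, and arginine. Its presence in all 10 members, and the likeness of the codons of these residues, therefore follow from the search. In each member it lay within a single exon. Of its 24 bases, 9 were the same in all 10 members. The searched codons add to this count and to the identical bases of each pair. Over the 45 pairs of members the number of identical bases ran from 11, for *Dusp5* and *Dusp3*, to 22, for *Dusp1* and *Dusp4* and for *Dusp4* and *Dusp10*, with a median of 17. The signature lay 70.3% of the way along the 367 residues of *Dusp1* and 37.1% along the 663 residues of *Dusp8*, which like *Dusp16* has a long tail after its catalytic domain.

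Several members are inducible genes, so their promoters were searched too. RefSeq promoter windows on GRCm38.p6, from 250 bases before to 50 bases after the start, were at hand for 9 of the 10 members, and *Dusp4* is only named here. The search covered both strands. It looked for the cAMP response element, spelled TGACGTCA, and for the CArG box that serum response factor binds. It also looked for an ETS core, spelled CCGGAA, and an AP-1 element, spelled TGANTCA in which any base may stand at N. The last motifs were a TATA box, spelled TATAAA, and an SP1 box, spelled GGGCGG. The 3 windows with a cAMP response element or a CArG box are shown around these matches, which are in capitals, since they are the least common motifs of the search.
Dusp1 (chr17:26508596-26508627, minus strand): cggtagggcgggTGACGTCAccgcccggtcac
Dusp8 (chr7:142095328-142095403, minus strand): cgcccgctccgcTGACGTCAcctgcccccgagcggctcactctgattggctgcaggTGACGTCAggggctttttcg
Dusp5 (chr19:53529051-53529094, plus strand): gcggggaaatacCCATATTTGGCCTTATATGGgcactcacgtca
*Dusp1* held 1 cAMP response element and *Dusp8* held 2, where 1.79% of 32851 promoter windows had at least 1. *Dusp5* held 2 CArG boxes that abut each other, from 82 to 63 bases before the start, where 1.63% of windows had at least 1. In the window of *Dusp6* none of the 6 motifs was matched, and no member's window matched the ETS core, the AP-1 element or the TATA box (14.9%, 7.81% and 13.6% of all windows). The SP1 box was in the windows of 8 members and in 35.7% of all windows. The windows of *Dusp10*, *Dusp3* and *Dusp8* are set on a start that lies 21079, 2222 and 559 bases downstream of the deposited gene start. Both cAMP response elements of *Dusp8* therefore lie inside the deposited gene model. A match is a description of letters and says nothing about binding in these hearts.

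The fragments in genes numbered 13647167 to 18474002 in a heart. All 8 cardiomyocyte genes examined (among them *Myh6* and *Tnnt2*) were above 0.5 FPKM on average, with a summed level of 15768 to 21740 FPKM in the vehicle group and 15839 to 21457 FPKM in the MEKi group. Sex-linked transcripts divided the hearts as treatment did. *Xist* was between 5.16 and 6.85 FPKM in the MEKi hearts and at most 0.00662 FPKM in the vehicle hearts, whereas *Ddx3y* lay between 10.3 and 12.2 FPKM in the vehicle hearts and was listed at 0 in all MEKi hearts. This pattern reads as male vehicle hearts and female MEKi hearts, though the labels give no sex. Treatment and sex, as read from these transcripts, cannot be told apart in any result below. Blood differed between hearts of the vehicle group. The summed level of 5 erythroid genes was 23639 and 25874 FPKM in vehicle hearts 4 and 5. In the other 8 hearts it was 2899 to 7386 FPKM. Summed over 6 atrial genes, vehicle hearts 4 and 5 held 898 and 423 FPKM and MEKi heart 2 held 740 FPKM. The other hearts held 13.7 to 59.0 FPKM of atrial transcripts. Adipocyte genes summed to 98.1 FPKM in vehicle heart 4, 96.7 FPKM in MEKi heart 2 and at most 30.8 FPKM in the others.

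The heart expressed 8 of the 10 phosphatases at a mean of at least 0.5 FPKM. *Dusp1* was the most abundant in both groups, followed by *Dusp3*, *Dusp7*, *Dusp6*, *Dusp8*, *Dusp5*, *Dusp16*, *Dusp10*, *Dusp4* and *Dusp2*. This order of the group means was the same with vehicle and with MEKi. *Dusp1*, *Dusp3* and *Dusp7* formed an upper tier of 14.2 to 18.5 FPKM in the vehicle group, and the ranges of neighbours in this tier overlapped. *Dusp7* stood apart from *Dusp6* by 2.19 times in the vehicle group and 2.20 times in the MEKi group, with *Dusp7* higher in each of the 10 hearts. *Dusp6*, *Dusp8*, *Dusp5* and *Dusp16* overlapped with their neighbours. *Dusp16* was above *Dusp10* in all vehicle hearts without overlap, but in 3 of 5 MEKi hearts. *Dusp10* was 2.93 times and 4.46 times *Dusp4*, without overlap in either group. Among the 12602 genes that averaged 0.5 FPKM or more, *Dusp1* ranked 2007 by level and *Dusp10* ranked 8963.

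**Figure D1:**
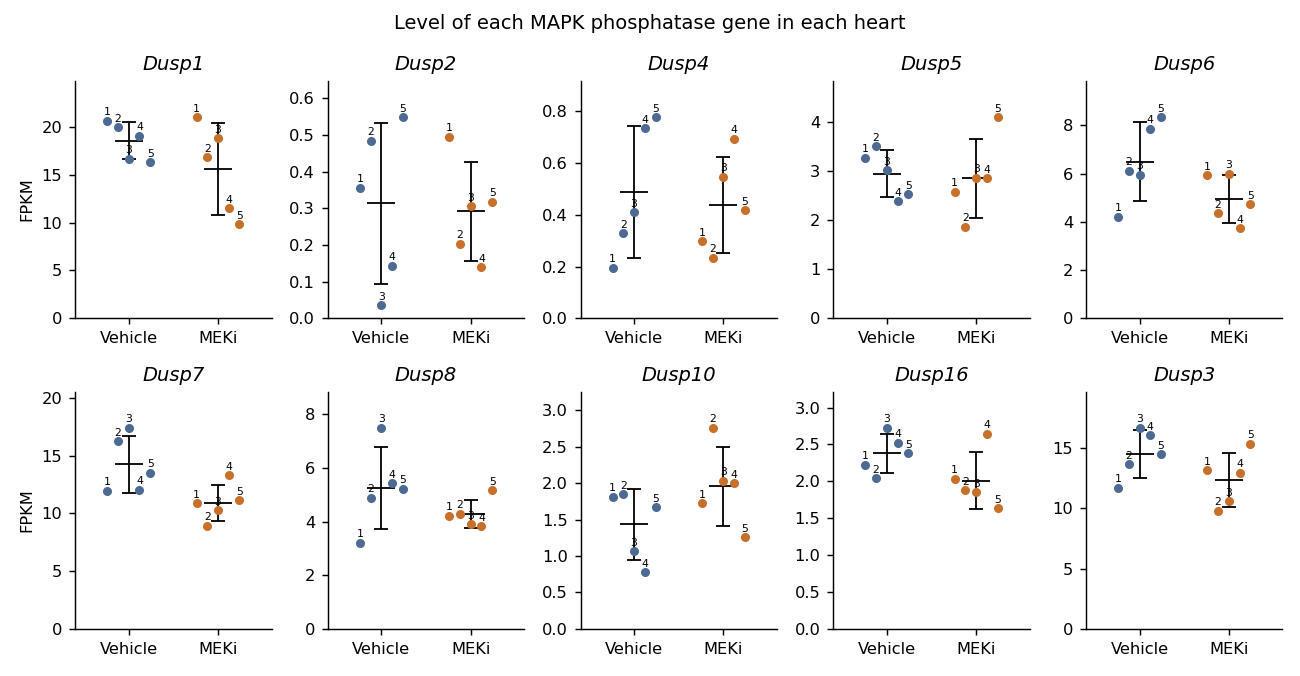
FPKM (linear axis from 0, scaled per gene) of the 10 phosphatase genes in each heart, with hearts numbered 1 to 5 in each group and the mean ± SD in black. *Dusp7* and *Dusp16* have 4 of 5 MEKi hearts below all vehicle hearts, *Dusp10* has 3 of 5 above, and *Dusp1* separates MEKi hearts 4 and 5 from the rest.

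The group comparison was made with limma on log2(FPKM + 0.1) for the 12602 genes, with Benjamini-Hochberg adjustment. The added 0.1 makes the fold changes of low genes smaller than those of their FPKM. The p-values set each difference against the spread between these hearts. No phosphatase passed the threshold of 0.05 for the adjusted p, where 0.0794% of all genes did. The fit without X, Y and mitochondrial genes had 0 genes past this threshold, though genes of chromosomes 1 and 9 were among those past it in the full fit. By unadjusted p under 0.05, 1 of the 8 tested phosphatases was called, *Dusp7*, against 7.62% of all genes. The log2 mean was lower with MEKi for 7 of the 8 and higher for *Dusp10* alone, where 47.9% of all genes were lower. Their median log2 fold change was −0.25, beside 0.01 over all genes tested. In none of the 10 phosphatases did the 2 groups separate without overlap, as 1.64% of all genes did. In a bulk heart, fewer cells of a type and less RNA per cell cannot be told apart. Each gene also had an exact permutation test of its mean FPKM, two-sided, over all assignments of the hearts (10 tests, not adjusted), which can give no p below 0.00794.

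**Figure D2:**
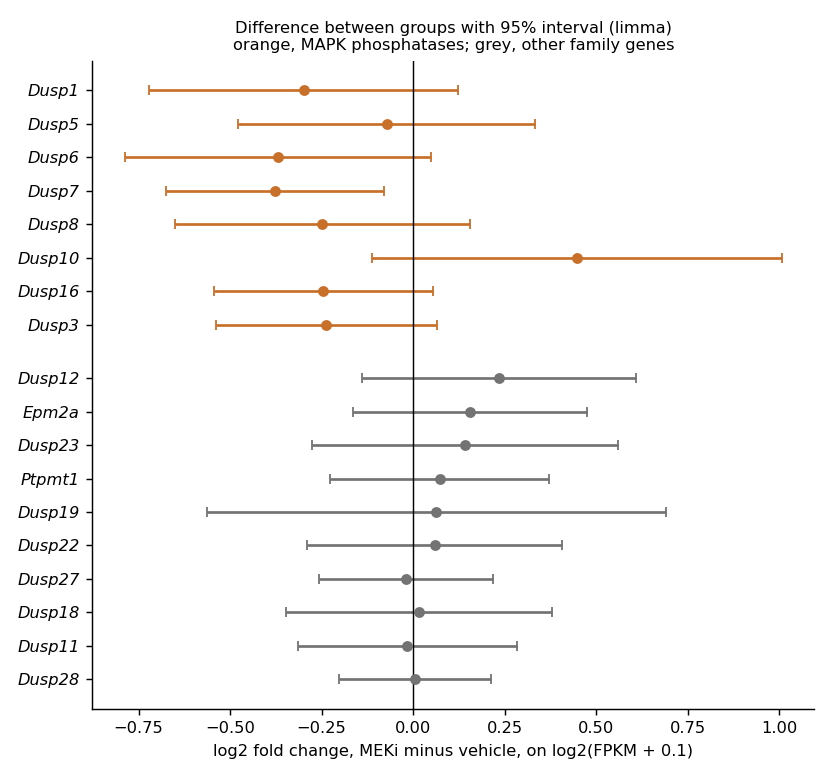
Log2 fold change (MEKi minus vehicle, log2(FPKM + 0.1)) with its 95% interval from limma for the 8 phosphatases tested (orange) and 10 other DUSP family genes (grey). Of the orange intervals, 7 include 0 and that of *Dusp7* does not, before any adjustment. The grey points lie between −0.02 and 0.23.

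*Dusp6* and *Dusp7* encode cytoplasmic phosphatases that prefer ERK, and they had the most negative log2 fold changes of the 8 in the fit of all 10 hearts. *Dusp7* (chromosome 9, 106368632 to 106375724, plus strand) was at 11.97, 16.2, 17.4, 12.05 and 13.5 FPKM in vehicle hearts 1 to 5. In MEKi hearts 1 to 5 it was at 10.9, 8.93, 10.3, 13.3 and 11.1 FPKM. In *Dusp7*, 4 of 5 MEKi hearts were below every vehicle heart, and MEKi heart 4 lay inside the vehicle range. The means were 14.2 ± 2.47 and 10.9 ± 1.59 FPKM (SD, n = 5 each), 23.4% lower with MEKi. The log2 fold change was −0.38 (SE 0.14, 95% interval −0.67 to −0.08, limma adjusted p = 0.551). The exact permutation test gave p = 0.0397 for *Dusp7*, the lowest of the 10. The unadjusted p of *Dusp7* by limma was 0.0171, and it missed 0.05 on the TPM scale (0.0594). Without MEKi heart 4 the groups did not overlap for *Dusp7* and *Dusp16*, 2 of the 10 phosphatases, nor for 2.63% of all genes.

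*Dusp6* (chromosome 10, 99263231 to 99267489, plus strand) showed more spread. In vehicle hearts 1 to 5 the gene gave 4.21, 6.11, 5.95, 7.87 and 8.34 FPKM, and in MEKi hearts 1 to 5 it gave 5.94, 4.35, 6.0, 3.73 and 4.73 FPKM. The vehicle group ran from below 4 of the MEKi hearts, in vehicle heart 1, to the highest values of the 10, in vehicle hearts 4 and 5. These last 2 are the hearts with the high erythroid transcripts, and they also held high atrial transcripts, as did MEKi heart 2. The part of blood or of atrial tissue in this value was not tested. All 5 MEKi hearts were below the vehicle median of 6.11 FPKM. The mean of *Dusp6* was 23.8% lower with MEKi, with an interval that included 0 (log2 fold change −0.37, SE 0.19, 95% interval −0.79 to 0.05, limma adjusted p = 0.684). Without vehicle heart 1 the log2 fold change of *Dusp6* was −0.51 (limma unadjusted p = 0.0107, adjusted p = 0.398). Without vehicle heart 4 it was −0.29 and without vehicle heart 5 −0.27 (limma unadjusted p = 0.176 and 0.189, adjusted p = 0.785 and 0.842).
Summed over *Dusp6* and *Dusp7*, vehicle hearts held 16.2 to 23.3 FPKM and MEKi hearts 13.3 to 17.0 FPKM. Vehicle heart 1, at 16.2 FPKM, was the one vehicle heart inside the MEKi range.

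The nuclear, inducible phosphatases are encoded by *Dusp1*, *Dusp2*, *Dusp4* and *Dusp5*. *Dusp1* (chromosome 17, 26505590 to 26508519, minus strand), whose product acts on p38, JNK and ERK, was at 20.6, 19.9, 16.7, 19.1 and 16.3 FPKM in vehicle hearts 1 to 5. The MEKi hearts divided. Hearts 1, 2 and 3 were at 21.01, 16.8 and 18.8 FPKM, within or above the vehicle range, while hearts 4 and 5 were at 11.5 and 9.84 FPKM, below every vehicle heart. The SD of *Dusp1* was 1.94 FPKM with vehicle and 4.78 FPKM with MEKi, around means of 18.5 and 15.6 FPKM (n = 5 each). The interval of the group difference included 0 (log2 fold change −0.30, SE 0.19, 95% interval −0.72 to 0.12, limma adjusted p = 0.757). Without MEKi heart 5 the log2 fold change of *Dusp1* came to −0.15, and without MEKi heart 4 to −0.20.

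The hearts low in *Dusp1* were also low in some other immediate early genes, but not in most of them. MEKi hearts 4 and 5 were the 2 lowest of the 10 hearts for 5 of the 15 immediate early genes past the filter. These were *Fos*, *Egr1*, *Ier2*, *Btg2* and *Klf2*, which except *Egr1* are named after their values were seen. The share of all genes with the same 2 lowest hearts was not counted. *Fos*, a subunit of AP-1, was at 0.166 and 0.216 FPKM in these 2 hearts and between 1.01 and 2.22 FPKM in the other 8. Summed over the 18 immediate early genes on the list, MEKi hearts 4 and 5 held 160 and 136 FPKM, and the other 8 hearts held 177 to 214 FPKM. The labels name no batch that would divide the MEKi hearts.

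**Figure D3:**
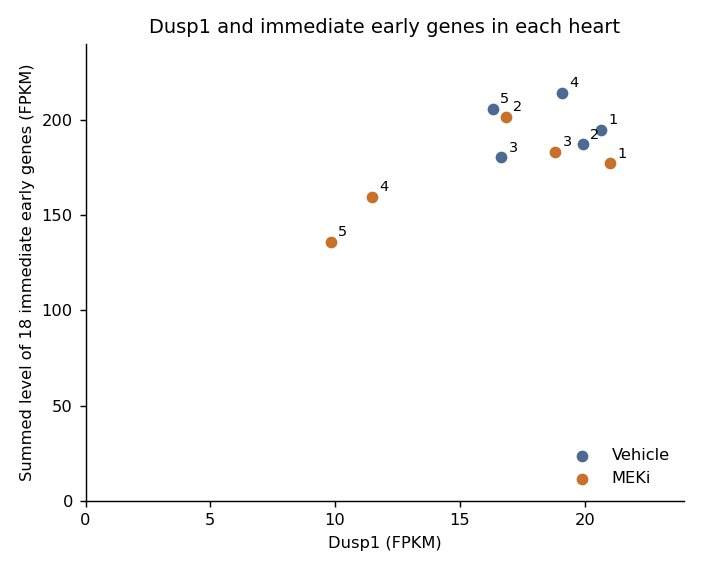
*Dusp1* (FPKM) against the summed level of 18 immediate early genes (FPKM) in each of the 10 hearts, numbered within their group, both axes linear from 0. MEKi hearts 4 and 5 lie low on both axes, at 11.5 and 9.84 FPKM of *Dusp1*, and the other 3 MEKi hearts lie near the vehicle hearts, with heart 1 just outside their range on both axes.

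*Dusp5* (chromosome 19, 53529109 to 53542431, plus strand), a nuclear phosphatase specific for ERK, had close means in the 2 groups. The vehicle hearts averaged 2.94 ± 0.478 FPKM and the MEKi hearts 2.85 ± 0.806 FPKM (SD, n = 5 in each group). Its lowest value, 1.86 FPKM in MEKi heart 2, and its highest, 4.09 FPKM in MEKi heart 5, both came from the MEKi group. The log2 fold change of *Dusp5* was −0.07 (SE 0.19, limma adjusted p = 0.955), and its 95% interval of −0.48 to 0.33 spans 0.718 to 1.26 times the vehicle level. On a TPM scale its sign turned, at 0.0026, so *Dusp5* has no direction here.

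*Dusp4* and *Dusp2* were too low for the fit. *Dusp4* (chromosome 8, 34807297 to 34819894), a nuclear phosphatase that acts on ERK and JNK, ran from 0.195 to 0.777 FPKM with vehicle and from 0.234 to 0.694 FPKM with MEKi, on 9 to 34 fragments per heart (exact permutation test, p = 0.730). Vehicle hearts 4 and 5 were again the highest, at 0.734 and 0.777 FPKM. *Dusp2* (chromosome 2, 127336159 to 127338376), a phosphatase best known from activated leukocytes, ran from 0.0351 to 0.549 FPKM with vehicle and from 0.140 to 0.495 FPKM with MEKi, on 1 to 17 fragments (exact permutation test, p = 0.849). At this depth only a large difference in *Dusp2* or *Dusp4* would be detectable. The paper lists *Dusp2* among MAPK target genes that rose with *Rit1* M90I expression in primary neonatal cardiomyocytes, which were not examined here. Leukocyte markers give another background for *Dusp2*. All 7 macrophage genes had a lower log2 mean with MEKi. By limma 3 of the 7 had an unadjusted p under 0.05, as did 7.62% of all genes, and none passed the adjusted threshold. The summed level of these macrophage genes was 185 to 327 FPKM in vehicle hearts and 160 to 198 FPKM in MEKi hearts. Of 7 lymphocyte genes 3 passed the filter, and the list summed to 1.11 to 7.09 FPKM and 1.82 to 5.45 FPKM. The part of these cells in any phosphatase value was not tested.

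*Dusp8*, *Dusp10* and *Dusp16* encode phosphatases that prefer JNK and p38, the kinases of the stress branches that MEK1 and MEK2 do not feed. *Dusp10* (chromosome 1, 184013302 to 184075636, plus strand) was the only one of the 8 with a higher mean under MEKi. It was at 1.82, 1.85, 1.06, 0.779 and 1.67 FPKM in vehicle hearts 1 to 5 and at 1.73, 2.76, 2.04, 2.00 and 1.26 FPKM in MEKi hearts 1 to 5. In the MEKi group 3 hearts were above every vehicle heart, and vehicle hearts 3 and 4 had the 2 lowest values of all. The means were 1.44 ± 0.485 and 1.96 ± 0.547 FPKM (SD, n = 5 each), 1.36 times the vehicle level. The log2 fold change of *Dusp10* was 0.45 (SE 0.26, 95% interval −0.11 to 1.01, limma adjusted p = 0.715), and without vehicle heart 4 it was 0.26 (limma adjusted p = 0.840). Between 33 and 144 fragments per heart lay behind *Dusp10*. The annotated gene 1700056E22Rik, on the opposite strand within *Dusp10*, had 7 to 37 fragments, and the strand setting of the counting is not given in the sources used here.

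*Dusp16* (chromosome 6, 134715468 to 134792625, minus strand) gave 2.23, 2.05, 2.72, 2.52 and 2.38 FPKM in vehicle hearts 1 to 5, the narrowest vehicle group relative to its mean (SD 0.262 FPKM) after that of *Dusp1*. MEKi hearts 1 to 5 gave 2.04, 1.88, 1.85, 2.65 and 1.63 FPKM for *Dusp16*. Of these, 4 were below the lowest vehicle heart, and MEKi heart 4 was near the top of the vehicle range. The mean of *Dusp16* was 15.6% lower, with an interval that included 0 (log2 fold change −0.25, SE 0.14, 95% interval −0.55 to 0.05, limma adjusted p = 0.715).

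*Dusp8* (chromosome 7, 142079490 to 142095843, minus strand) ran from 3.22 to 7.50 FPKM with vehicle, the ends being vehicle hearts 1 and 3, and from 3.82 to 5.16 FPKM with MEKi. The MEKi hearts lay inside the vehicle range in all 5 cases. The log2 fold change of *Dusp8* was −0.25 (SE 0.18, limma adjusted p = 0.790). It was −0.41 without vehicle heart 1, the lowest, and −0.11 without vehicle heart 3, the highest (limma unadjusted p = 0.0147 and 0.502, adjusted p = 0.402 and 0.859).

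*Dusp3* (chromosome 11, 101971143 to 101987013, minus strand) encodes a small atypical phosphatase without the docking domain of the other members. Its mean was above that of *Dusp7* in both groups, with ranges that overlapped, at 11.7 to 16.7 FPKM in vehicle hearts and 9.80 to 15.4 FPKM in MEKi hearts. MEKi hearts 2 and 3 were below all vehicle hearts, at 9.80 and 10.6 FPKM. The log2 fold change of *Dusp3* was −0.24 (SE 0.14, 95% interval −0.54 to 0.06, limma adjusted p = 0.720).

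**Figure D4:**
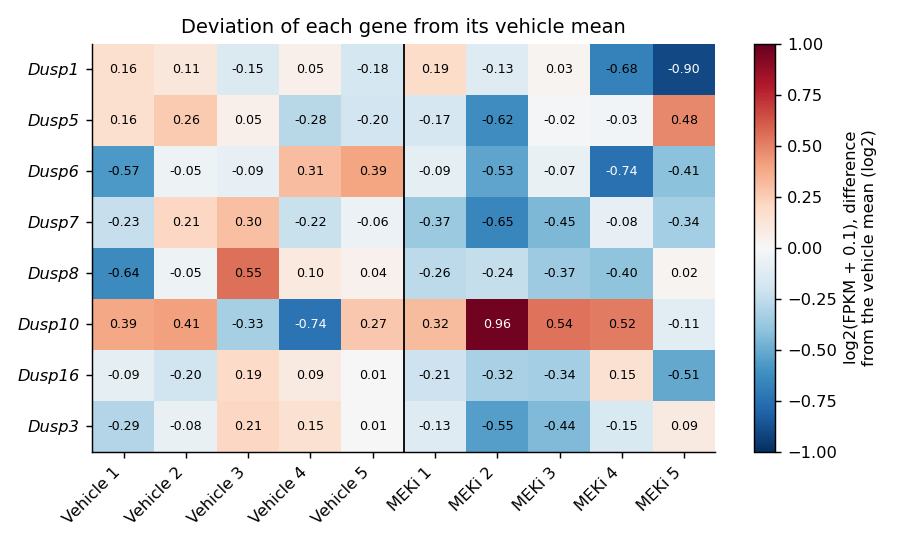
Difference of log2(FPKM + 0.1) from the vehicle mean for the 8 phosphatases tested (rows) in each heart (columns, numbered within their group), with red above and blue below that mean and the value in each cell. The MEKi columns are mostly blue except for *Dusp10*, and vehicle heart 1 is below the mean for *Dusp6* (−0.57) and *Dusp8* (−0.64).

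Single hearts stood out across the genes. Vehicle heart 1, the deepest library of its group, was the lowest of the 10 hearts for *Dusp4* and *Dusp8* and the lowest vehicle heart for *Dusp6*, *Dusp7* and *Dusp3*, yet it had the highest vehicle value of *Dusp1*. Without it, 4 of the 8 phosphatases had an unadjusted p under 0.05 by limma in place of 1, *Dusp6*, *Dusp7*, *Dusp8* and *Dusp3*, and 0 passed after adjustment, where 9.84% of all genes had an unadjusted p under 0.05 in the same fit. Vehicle heart 3 was the highest of the 10 hearts for *Dusp7*, *Dusp8*, *Dusp16* and *Dusp3*, and it had the largest share of mitochondrial fragments (35.0%, against at most 31.1% in the others), whose part in these values was not tested. Without it the median log2 fold change of the 8 was −0.19, the value closest to 0 with any one heart left out. MEKi heart 2 was the lowest of all for *Dusp5*, *Dusp7* and *Dusp3* and the highest for *Dusp10*. It also held high atrial and adipocyte transcripts, and their part in these values was not tested. Summed over the 10 genes, the phosphatase level was 59.6, 69.0, 71.4, 67.1 and 65.8 FPKM in vehicle hearts 1 to 5 and 62.3, 51.1, 57.2, 53.7 and 53.9 FPKM in MEKi hearts 1 to 5. The 2 groups overlapped in this sum through vehicle heart 1 and MEKi heart 1.

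The patterns over the hearts were also compared as the root-mean-square difference between standardised log2 values over the 10 hearts, which is 0 for the same pattern and 1.41 for unrelated ones. The most alike members were *Dusp3* and *Dusp8* (0.704), then *Dusp3* and *Dusp7* (0.807). Among 10705 genes that averaged 1 FPKM or more, the gene closest to *Dusp3* was *Ccnd1*, which encodes cyclin D1 (0.250), then *Aqr* (0.295). *Glipr2* was closest to *Dusp6* (0.352), *Stradb* to *Dusp7* (0.382), *Dnajc7* to *Dusp10* (0.374) and *Leng9* to *Dusp1* (0.439). These are the nearest of many genes over few hearts, and no test was made of them.

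The rest of the pathway was read from fixed lists in the same fit. Of 19 other DUSP family genes, among them atypical phosphatases, 10 were tested, 8 with a higher and 2 with a lower log2 mean under MEKi, and 0 were called by unadjusted or adjusted p. Their median log2 fold change was 0.06 and the 2 largest were those of *Dusp12* (0.23, adjusted p = 0.784) and *Epm2a* (0.15, adjusted p = 0.833). *Dusp28*, an atypical phosphatase gene at the level of the upper tier, was at 15.9 ± 1.97 and 15.8 ± 0.887 FPKM (SD, n = 5 each), and is named after its values were seen. Of 10 phosphatases of other families that act on MAPKs, 8 were tested with a median of −0.02, the largest being *Ppp2cb* (−0.12) and *Ppp2r1a* (0.10), subunits of protein phosphatase 2A.

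The MAP kinases, the enzyme family on which the DUSPs act, were read at the level of their transcripts. Of 11 MAP kinases 10 were tested, and the median of their log2 fold changes was −0.02. The farthest from 0 were *Mapk12* (−0.28, adjusted p = 0.715), which encodes p38γ, and *Mapk7* (−0.15, adjusted p = 0.895), which encodes ERK5. None was called by unadjusted or adjusted p. All 7 MAP kinase kinases had a higher log2 mean with MEKi, with a median of 0.13, led by *Map2k5* (0.23, adjusted p = 0.696) and *Map2k4* (0.17, adjusted p = 0.849), and 0 were called by unadjusted or adjusted p.

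Other transcripts that respond to ERK, none of which passed after adjustment, are given beside the phosphatases. Over all genes tested, 7.62% had an unadjusted p under 0.05 by limma. Of 12 tested feedback and target genes, 9 had a lower log2 mean with MEKi and 5 of these had an unadjusted p under 0.05, with a median of −0.24, close to that of the phosphatases. *Spry4* (−0.82, SE 0.17, adjusted p = 0.195) and *Errfi1* (−0.62, SE 0.14, adjusted p = 0.289), which encode feedback inhibitors of receptor signaling, were farthest from 0. The paper had already singled out *Errfi1* for its lower level in MEKi-treated hearts, so its value here is not independent of that choice. Of 15 immediate early genes, 12 were lower and 7 of these had an unadjusted p under 0.05, as did 1 of the 3 that were higher. *Egr1* (−1.08, adjusted p = 0.478) and *Nr4a1* (−1.03, adjusted p = 0.585) were farthest from 0. Of 8 glucocorticoid-responsive genes, a list given since *Dusp1* belongs to this response too, 7 were lower and 3 of these had an unadjusted p under 0.05, led by *Mt1* (−0.69, adjusted p = 0.125) and *Per1* (−0.58, adjusted p = 0.562). The list summed to 261 to 353 FPKM in vehicle hearts and 175 to 245 FPKM in MEKi hearts, most of it *Mt1*, and its part in the *Dusp1* values was not tested.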

How the data were processed

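Poly(A)-selected RNA of 5 vehicle and 5 MEKi hearts was sequenced. The authors deposited FPKM per gene and heart, and the submitters' processing notes name fastp, STAR 2.5, HTSeq 0.6.1 and mm10, without their settings. In every heart the product of FPKM and gene length came in whole steps (tolerance 0.05), from which fragments were recovered for depth. Groups come from the labels, and nothing in the labels gives the litter or cage of a heart.

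The groups were compared on log2(FPKM + 0.1) for genes averaging 0.5 FPKM or more, using limma 3.58.1 (R 4.3.3) with eBayes trend, two-sided tests and Benjamini-Hochberg adjustment, and the fit was tested on simulated data. Summaries and exact permutation tests used Python 3.11.15. The members and lists were chosen with earlier results of these data known. Named were all members, the 2 largest fold changes of each pathway list, and genes nearest in pattern.

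Alternatives were other pseudocounts and filters, TPM and quantile scaling, eBayes without trend or robust, array weights, a replicate block, voom, protein-coding genes only, no X, Y or mitochondrial genes, and leaving out each heart.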

Additional observations from a re-analysis of the deposited data

How the results depend on the processing

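No phosphatase passed the adjusted threshold under any of the 23 alternatives run. By unadjusted limma p under 0.05 the count was 1 with voom on the recovered fragments, where 975 of all 12602 genes were under 0.05. It was 0 on the TPM scale and with the replicate block (*Dusp7* at 0.0594 and 0.0502), where 1010 and 771 of all genes were under 0.05. With each heart left out the count ran from 1 to 4, beside 6.43% to 9.99% of all genes. The directions of 7 phosphatases held in each alternative that could test them, and that of *Dusp5* turned on the TPM scale (0.0026) and without MEKi replicate 2 (0.064), with −0.21 the lowest value when a heart was left out. A mean of at least 5 FPKM left 4 of the 8 to test. The lowest adjusted p of a phosphatase was 0.395, for *Dusp7* without vehicle replicate 1. With each heart left out, the median log2 fold change of the 8 ran from −0.29 to −0.19, and the number of phosphatases whose groups did not overlap from 0 to 2, the 2 being *Dusp7* and *Dusp16* without MEKi replicate 4, where 2.63% of all genes did not overlap. The TPM scale moved the median of all genes from 0.01 to 0.09.

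The 10 genes past the threshold among all genes became 18 with array weights, 2 with a mean of at least 5 FPKM, and 0 without X, Y and mitochondrial genes (924 by unadjusted p under 0.05). Leaving out each heart gave 5 to 13, the 5 without vehicle replicate 2. The cause was not tested. With the replicate block 4 genes passed. The block stands for a shared number only, since 0 of the 5 same-numbered pairs of hearts had deviations that correlated above 0.1 and 0 vehicle hearts correlated best with their own number.

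At 1 to 34 fragments per heart, counting error limits *Dusp2* and *Dusp4*.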
